A study of Mus musculus and Homo sapiens with 14 samples.

Results

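The set described here holds 43 genes of the DNA replication machinery, chosen by symbol in the mouse gene table and by the same symbols in capitals in the human table. All 43 were found in each, of 26221 named mouse entries and 27945 named human entries. RNA was sequenced from 14 libraries, 10 of mouse and 4 of human origin, which fall into 8 groups; IRF4 is a transcription factor that plasma cells depend on, and the libraries compare plasma cells and plasma cell tumour lines with and without its targeting. In the primary arm, Irf4 flox/- or Irf4 flox/+ marrow was given together with uMT marrow, which makes no mature B cells, to hosts that carried a different congenic mark. All these hosts received tamoxifen on days 1, 2, 7 and 8, and donor plasma cells were taken from the spleen on day 14, with 2 libraries labelled Irf4 flox/- and 2 labelled Irf4 flox/+ (C57BL/6; no age and no Cre driver is named). The tumour arm used MPC-11, a mouse plasmacytoma line, and MM.1S, a line from a human myeloma. The labels give lymph node as the source and C57BL/6 as the strain of MPC-11, and bone marrow as the source of MM.1S, none of which was checked here. Each carried Cas9 with a guide RNA against IRF4 (2 libraries per line, labelled Irf4 -/-) or with an empty vector (2 libraries per line, labelled WT), received doxycycline and was sorted on day 3. Wild-type bone marrow plasma cells (BMPC) and wild-type splenic follicular B cells (FoB) were sequenced in 1 library each. No label says that libraries of a group came from separate animals or cultures, so p-values measure only the spread between these libraries, which may be technical.

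A cell copies its DNA in an ordered sequence. The origin recognition complex with CDC6 and CDT1 loads the ring of MCM2 to MCM7 onto origins, CDC45 and GINS turn that ring into an active helicase, and polymerases, the PCNA clamp and its RFC loader then make new DNA. Ribonucleotide reductase and thymidylate enzymes supply the building blocks, and CAF-1, UHRF1 and DNMT1 restore histones and methylation behind the fork. In cycling cells many of these genes are known targets of E2F transcription factors, whereas mature plasma cells are generally thought of as non-dividing.

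Total counts were 18738283 to 27003585 per mouse library and 19317115 to 21572315 per human library. Immunoglobulin genes took 56.3% and 52.7% of counts in the libraries labelled flox/- against 72.1% and 73.4% in those labelled flox/+. The targeted transcript was lower in the guided lines, though not past edgeR's adjusted threshold. Irf4 stood at 276 and 146 CPM with the guide against 467 and 496 CPM with the empty vector in MPC-11 (CPM is the count scaled to library depth within the comparison; edgeR adjusted p = 0.592), and IRF4 at 142 and 191 CPM with the guide against 489 and 434 CPM with the empty vector in MM.1S (edgeR adjusted p = 0.199). In splenic plasma cells Irf4 stood at 82.7 and 99.8 CPM in the libraries labelled flox/- against 114 and 53.8 CPM in those labelled flox/+, so the gene total did not separate the genotypes and the splenic groups are named by their labels throughout. Marker values of mouse libraries, here and below, are CPM scaled over the 10 mouse libraries and not within the comparison. Summed plasma cell markers were 32050 to 34830 CPM in the libraries labelled flox/- and 76270 to 96050 CPM in those labelled flox/+. All 7 markers were detected in each group. Most of the sum was Jchain, at 31860 and 29100 CPM in flox/- against 70070 and 88270 CPM in flox/+. Sdc1, Xbp1, Tnfrsf17 and Slamf7 were also lower in both flox/- libraries, while Prdm1 and Irf4 overlapped.

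In MM.1S the replication genes were lower with the guide almost throughout. Of 43 genes, 41 had a log2 fold change below 0, against 49.3% of the 12696 genes tested, and the median was -0.78 against 0.01 over all genes. Both guide libraries lay below both empty-vector libraries for 34 of the 43, against 18.9% of all genes, and above them for none, against 22.4%. No member passed the adjusted threshold of edgeR's quasi-likelihood test, in which 0.00788% of all genes were called lower and 0.0% higher, and the smallest adjusted p among members was 0.22. At an unadjusted p under 0.05, edgeR had 26 members lower against 4.58% of all genes and 0 higher against 5.42%, and DESeq2 called 13 lower at an adjusted p under 0.05 against 1.47%. Summed over the members, the level was 3545 and 4652 CPM in guide libraries 1 and 2 against 6082 and 8015 CPM in empty-vector libraries 1 and 2, so library 1 was the lower in each group. Without guide library 1 the unadjusted count was 4, and without empty-vector library 1 edgeR itself called 17 members lower at the adjusted threshold.

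**Figure D1:**
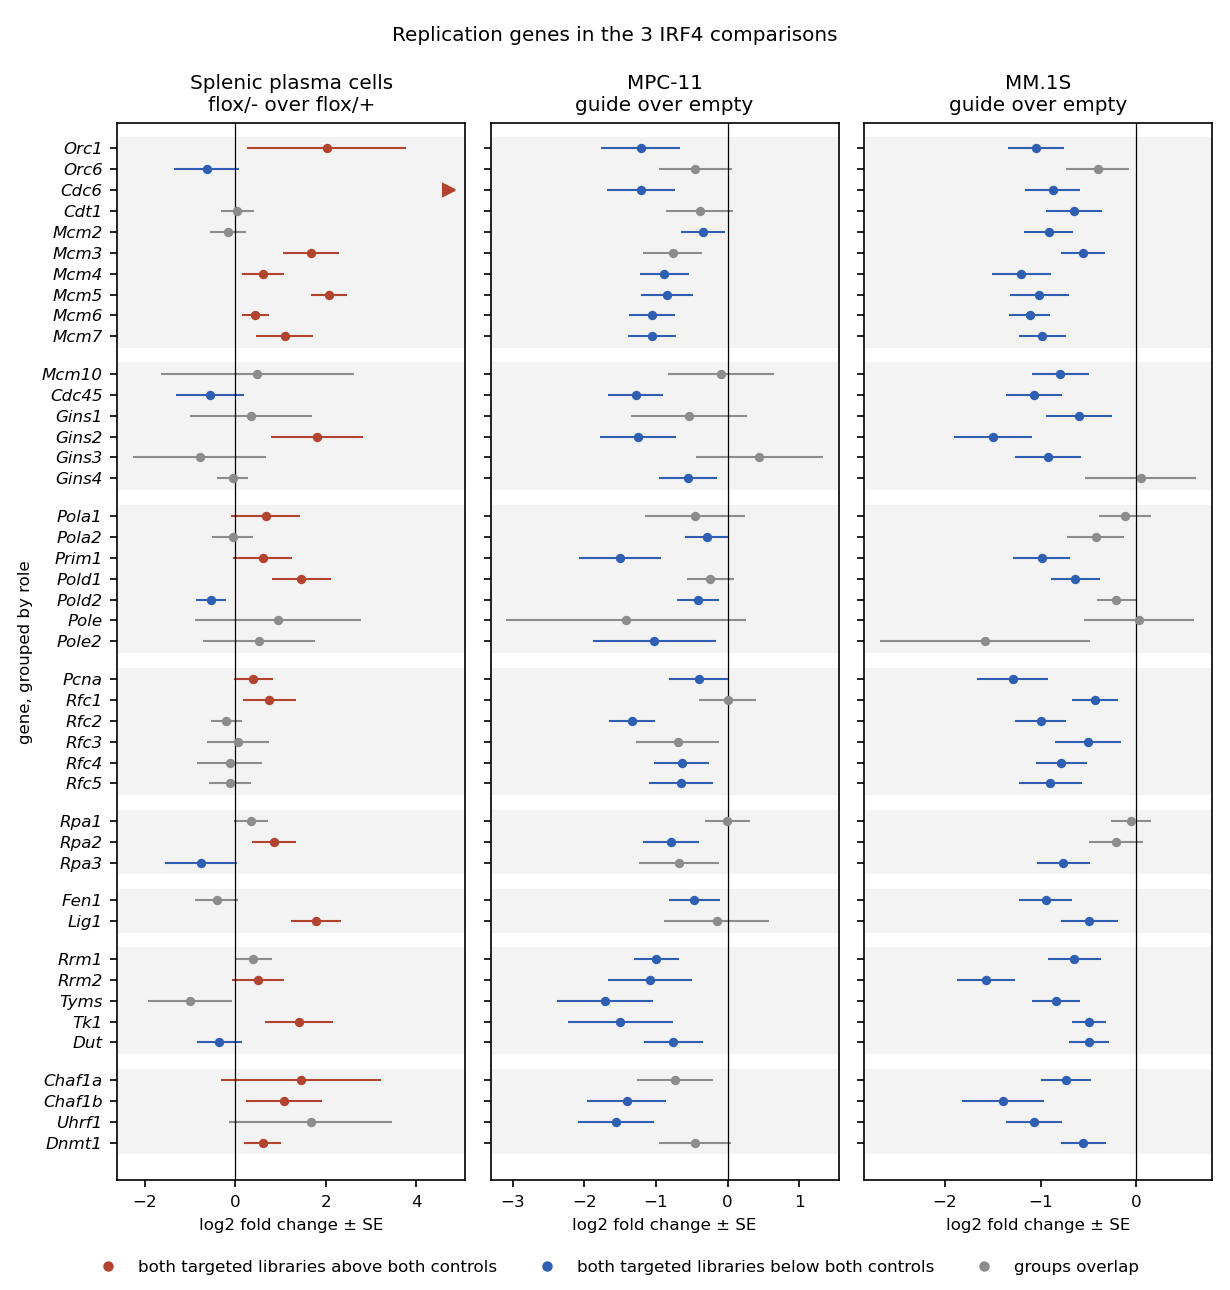
Log2 fold change (point) with its standard error (bar) for the 43 replication genes, ordered by role, in splenic plasma cells (left), MPC-11 (middle) and MM.1S (right); colour shows whether the 2 targeted libraries lie above, below or among the 2 controls, and the x axes differ between panels. The triangle for Cdc6 in splenic plasma cells is a lower bound for counting error only, since its flox/+ libraries held no count. In MM.1S 34 genes are blue, in MPC-11 27 are blue, and in splenic plasma cells 20 are red and 5 blue.

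The licensing genes, which load the helicase, were lower by sign in MM.1S for 10 of 10 and without overlap for 9, and their summed level was 1182 and 1756 CPM with the guide against 2450 and 3092 CPM with the empty vector. MCM6, a subunit of the helicase ring, had 81.4 and 92.1 CPM with the guide against 169 and 207 CPM with the empty vector. Its guide libraries were close to each other and far below both controls, at -1.11 ± 0.21 in log2 fold change (SE, 2 libraries a group; adjusted p = 0.22 by edgeR and 1.376e-04 by DESeq2). MCM4 had 144 and 237 CPM with the guide against 356 and 522 CPM with the empty vector, at -1.2 ± 0.31 in log2 fold change (SE; adjusted p = 0.31 by edgeR and 0.00402 by DESeq2). MCM7 had 255 and 373 CPM with the guide against 554 and 683 CPM with the empty vector (adjusted p = 0.309 by edgeR and 0.00434 by DESeq2). The other 3 ring subunits kept the same order: with the guide and then with the empty vector, MCM2 had 211 and 304 CPM against 414 and 557 CPM, MCM3 had 262 and 383 CPM against 471 and 479 CPM, and MCM5 had 132 and 236 CPM against 323 and 418 CPM. In all 6 the guide libraries lay below the controls, and DESeq2 called all of them lower except MCM3 (adjusted p = 0.213). ORC6, an origin recognition subunit, was the licensing gene whose groups overlapped, at -0.41 ± 0.32 in log2 fold change (SE).

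**Figure D2:**
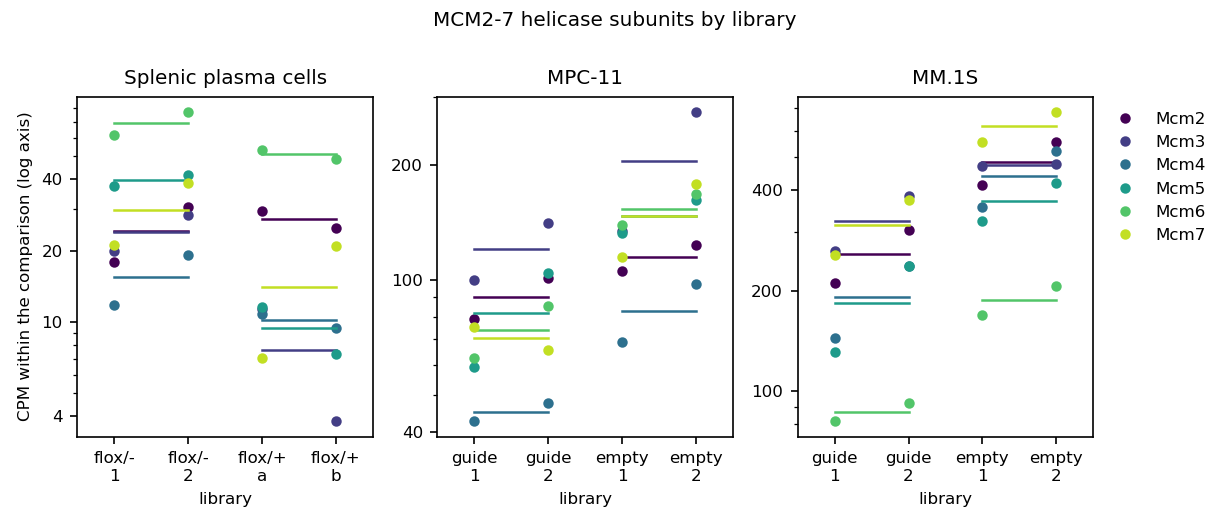
Level in CPM (log axis, scaled within each comparison) of Mcm2 to Mcm7 in each library of MM.1S, of MPC-11 and of plasma cells from the spleen; points are libraries and bars the mean of the 2 libraries of a group. In MM.1S all 6 subunits are lower in both guide libraries, in MPC-11 5 of 6 are, and in splenic plasma cells 5 of 6 are higher in both libraries labelled flox/-.

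Among the genes that activate the helicase, 5 of 6 were lower without overlap in MM.1S. CDC45, which joins the MCM ring at firing origins, had 35.6 and 54.8 CPM with the guide against 81.7 and 107 CPM with the empty vector (log2 fold change -1.07 ± 0.29, SE; DESeq2 adjusted p = 0.0291). GINS2, a subunit of the GINS complex, had 9.16 and 14.9 CPM with the guide against 24.8 and 43.1 CPM with the empty vector, at -1.50 ± 0.40 in log2 fold change (SE; adjusted p = 0.314 by edgeR and 0.0428 by DESeq2). The subunits of GINS were not alike: GINS4 had 7.82 and 12.9 CPM with the guide against 5.27 and 14.8 CPM with the empty vector, and its groups overlapped.

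Of the polymerase genes, 2 of 7 were lower without overlap in MM.1S, at a median log2 fold change of -0.43. POLD2, an accessory subunit of polymerase delta, had 261 and 299 CPM with the guide against 286 and 362 CPM with the empty vector, and the groups overlapped. POLE, the catalytic subunit of polymerase epsilon, had 18.9 and 27 CPM with the guide against 9.94 and 35.1 CPM with the empty vector, so its guide libraries lay between the controls. POLE2, the second subunit of the same enzyme, had the lowest fold change of all members, but its values were 1.40 and 1.11 CPM with the guide against 0.887 and 6.64 CPM with the empty vector, and 1 empty-vector library carried the difference. The genes without overlap were PRIM1, the primase subunit that starts each new strand, and POLD1, the catalytic subunit of polymerase delta.

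The clamp and its loader were lower without overlap in MM.1S for 6 of 6 genes. PCNA, the sliding clamp, had 35.8 and 54.3 CPM with the guide against 76.8 and 144 CPM with the empty vector, at -1.29 ± 0.37 in log2 fold change (SE; adjusted p = 0.336 by edgeR and 0.0221 by DESeq2). Among the RPA subunits, which coat single-stranded DNA, RPA1 had 194 and 227 CPM with the guide against 196 and 242 CPM with the empty vector, where the groups overlapped, and of the 3 RPA3 was the one lower without overlap (median of the 3 -0.21). FEN1, the flap nuclease of Okazaki fragment maturation, had 209 and 243 CPM with the guide against 327 and 544 CPM with the empty vector (log2 fold change -0.95 ± 0.28, SE; DESeq2 adjusted p = 0.0221). DNA ligase LIG1 lay at -0.49 ± 0.30 (log2 fold change, SE), also without overlap.

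RRM2, the small subunit of ribonucleotide reductase, had the lowest DESeq2 adjusted p of the 43. Its level was 178 and 236 CPM with the guide against 449.8 and 775 CPM with the empty vector. Both guide libraries lay far below both controls, at -1.57 ± 0.30 in log2 fold change (SE; adjusted p = 0.22 by edgeR and 2.094e-05 by DESeq2). All 5 nucleotide supply genes were lower without overlap, with log2 fold changes between -1.57 for RRM2 and -0.50 for DUT, the dUTPase; TYMS, thymidylate synthase, overlaps ENOSF1 on the opposite strand and no source used here says that counting used strand. The 4 chromatin genes were lower without overlap as well. DNMT1, the maintenance methyltransferase, had 82.2 and 114 CPM with the guide against 150.2 and 137 CPM with the empty vector, and CHAF1B, a CAF-1 subunit, had 17.7 and 33 CPM against 46.1 and 87 CPM in the same order.

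Some markers of other cells were detected in MM.1S. B cell markers summed to 56.6 to 58.6 CPM with the guide against 33.6 to 48.4 CPM with the empty vector, all of it from CR2, a complement receptor and the one detected of 7, while MS4A1 and PAX5 were at 0 in both groups. Macrophage markers summed to 76.6 to 94.1 CPM with the guide against 83.9 to 109 CPM with the empty vector (4 of 9 and 2 of 9 detected), and T cell markers to 5.87 to 9.06 CPM with the guide against 1.07 to 3.63 CPM with the empty vector. Germinal center markers summed to 112 to 114 CPM with the guide against 62.2 to 63.4 CPM with the empty vector. Their part in the values of the replication genes was not tested.

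Lists of neighbouring cell cycle genes were set beside the members in MM.1S, and none of their genes passed edgeR's adjusted threshold. Of 45 tested other replication factors, 20 were lower and 2 higher without overlap, against 18.9% and 22.4% of all genes. Their median log2 fold change was -0.41. By edgeR's unadjusted p under 0.05, 7 of these factors, 10 G1/S regulators and 2 mitotic genes were lower, against 4.58% of all genes. In the same test 0 of any list were higher, against 5.42%. DESeq2 called 2, 4 and 2 genes of these lists lower in the same order, against 1.47%. POLE3, an accessory subunit of polymerase epsilon, had 305 and 386 CPM with the guide against 279 and 479 CPM with the empty vector, and the histone chaperone gene RBBP4 had 180.4 and 243 CPM against 184 and 228 CPM, both with overlap. Of 32 regulators of the G1/S step, 17 were lower and 4 higher without overlap (median -0.49). CCND2, a D-type cyclin, had 571 and 659.5 CPM with the guide against 1104 and 1314 CPM with the empty vector (edgeR adjusted p = 0.22), and MYBL2, a transcription factor of cycling cells, had 447 and 506 CPM against 611 and 934 CPM. Of 20 mitotic genes 8 were lower and 0 higher without overlap at a median of -0.21. The mitotic genes of highest CPM, PLK1 (313 and 304 CPM against 246 and 447 CPM) and CDC20 (247 and 269 CPM against 216 and 254 CPM), overlapped between guide and empty vector.

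In MPC-11 the members were also lower with the guide, with more spread between libraries. A log2 fold change below 0 was found for 42 of 43 genes, against 51.5% of the 10670 genes tested, at a median of -0.74 against -0.02 over all genes. Both guide libraries lay below both empty-vector libraries for 27 genes, against 16.5% of all genes, and above them for 0, against 16.9%. No member passed edgeR's adjusted threshold, by which 0.0% of all genes were lower and 0.0187% were higher. Its unadjusted p was under 0.05 for 11 lower members against 2.56% of all genes and for 0 higher ones against 3.49%, and DESeq2 called 1 lower against 0.459%. Without guide library 1 the unadjusted count was 2.

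**Figure D3:**
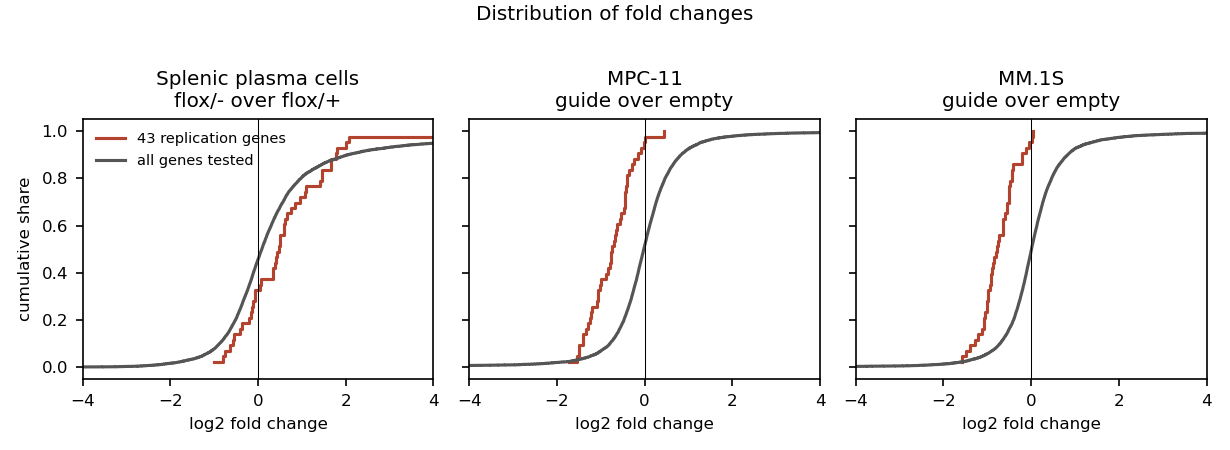
Cumulative share of genes (y axis) by log2 fold change (x axis, shown from -4 to 4) for the 43 replication genes and for all genes tested in each comparison. The member curve lies left of the curve of all genes in MPC-11 (medians -0.74 and -0.02) and MM.1S (-0.78 and 0.01) and mostly to the right in splenic plasma cells (0.48 and 0.09).

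The gene DESeq2 called in MPC-11 was Rfc2, a clamp loader subunit (Entrez 19718, mm10 chromosome 5, 134582690 to 134598328). Its level was 39.1 and 36.9 CPM with the guide against 102 and 89.6 CPM with the empty vector. Replicates were close to each other and the groups far apart, at -1.34 ± 0.32 in log2 fold change (SE, 2 libraries a group; adjusted p = 0.498 by edgeR and 0.0146 by DESeq2). Rfc1, the large subunit of the same loader, had 58.1 and 45.9 CPM with the guide against 37.8 and 66.1 CPM with the empty vector, and its guide libraries lay between the controls.

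All 10 licensing genes were lower by sign in MPC-11, and 7 did not overlap. Mcm6 had 62.5 and 85.5 CPM with the guide against 139 and 168 CPM with the empty vector (log2 fold change -1.05 ± 0.32, SE; edgeR adjusted p = 0.581). Mcm7 had 75.2 and 65.7 CPM with the guide against 115 and 178 CPM with the empty vector, at -1.06 ± 0.34 on the log2 scale (SE; edgeR adjusted p = 0.605). In the same order, Mcm4 had 42.7 and 47.6 CPM against 68.6 and 97.7 CPM, Mcm5 had 59.3 and 104 CPM against 132 and 162 CPM, and Mcm2 had 79.1 and 101 CPM against 106 and 124 CPM. These 5 subunits did not overlap between the groups. Mcm3 did, with 100 and 141 CPM with the guide against 134 and 275 CPM with the empty vector. In the GINS complex, Gins4 had 26.8 and 34.7 CPM against 55 and 35.3 CPM without overlap, while Gins3 was the member above 0, with 8.2 and 3.43 CPM with the guide against 5.86 and 2.72 CPM with the empty vector and overlapping groups.

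Among the MPC-11 polymerase genes, Pold2 had 183 and 158 CPM with the guide against 202 and 253 CPM with the empty vector. Prim1, the primase subunit, had 5.53 and 12.6 CPM with the guide against 30.0 and 21.2 CPM with the empty vector. Neither overlapped, and Prim1 was among the lowest of the set at -1.50 ± 0.57 (log2 fold change, SE; edgeR adjusted p = 0.761). Rpa1 had 97 and 135 CPM with the guide against 118 and 114 CPM with the empty vector, and the groups overlapped. Fen1 had 47.5 and 36.4 CPM with the guide against 62.9 and 52.8 CPM with the empty vector, without overlap.

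Nucleotide supply was the role in which every MPC-11 gene was lower without overlap, 5 of 5 as in MM.1S. Tyms had 4.1 and 3.21 CPM with the guide against 14.1 and 9.87 CPM with the empty vector, the lowest fold change of the set (log2 -1.71 ± 0.67, SE; edgeR adjusted p = 0.781). Rrm1, the large subunit of ribonucleotide reductase, had 59.6 and 49.3 CPM with the guide against 101 and 116 CPM with the empty vector (edgeR adjusted p = 0.6). Both were lower in each guide library than in each control. Among chromatin genes, Uhrf1, which reads half-methylated DNA for DNMT1, had 11 and 25.4 CPM with the guide against 39 and 67.6 CPM with the empty vector (log2 -1.55 ± 0.53, SE). Dnmt1 had 132 and 122 CPM with the guide against 85.5 and 260.2 CPM with the empty vector, and its guide libraries lay between the controls.

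Of the neighbouring lists in MPC-11, no gene of the 3 passed edgeR's adjusted threshold. Among 46 other replication factors 17 were lower and 3 higher without overlap, against 16.5% and 16.9% of all genes. Their median log2 fold change was -0.39. By unadjusted p under 0.05, edgeR had 5 of these factors, 3 G1/S regulators and 7 mitotic genes lower, against 2.56% of all genes. It had 3 G1/S regulators higher, against 3.49%, and DESeq2 called 1 mitotic gene lower, against 0.459%. Ssrp1, a histone chaperone subunit, had 191 and 179 CPM with the guide against 188 and 214 CPM with the empty vector, and Samhd1, which degrades deoxynucleotides, had 197 and 170.3 CPM against 110.4 and 126 CPM, higher in both guide libraries (edgeR adjusted p = 0.869). Among 30 G1/S regulators 8 were lower and 6 higher without overlap (median -0.34), and those of highest CPM overlapped: with the guide and then the empty vector, Myc had 2850 and 2358 CPM against 1330 and 3328 CPM and Ccnd2 had 562 and 428 CPM against 301 and 538 CPM. Mitotic genes were lower without overlap for 12 of 20 and higher for 1 (median -0.68). Cdc20, an activator of the anaphase-promoting complex, had 141 and 189 CPM with the guide against 374 and 355 CPM with the empty vector, and Bub1b, a spindle checkpoint kinase, was the one higher, with 347 and 292 CPM against 224 and 287 CPM.

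With the lines side by side, 40 of the 43 genes were below 0 in both, against 29.3% of the 8358 genes tested in both. Without overlap, 22 of the 43 were lower in both lines, against 4.56% of all genes tested in both. These 22 genes made up 81.5% of the 27 in MPC-11 and 64.7% of the 34 in MM.1S. The matching shares of such lists over all genes were not computed. They were Orc1, Cdc6, Mcm2, Mcm4, Mcm5, Mcm6, Mcm7, Cdc45, Gins2, Prim1, Pcna, Rfc2, Rfc4, Rfc5, Fen1, Rrm1, Rrm2, Tyms, Tk1, Dut, Chaf1b and Uhrf1. All roles but single-strand binding are among them. The lines come from different species and were scaled separately, and no difference between them was tested.

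**Figure D4:**
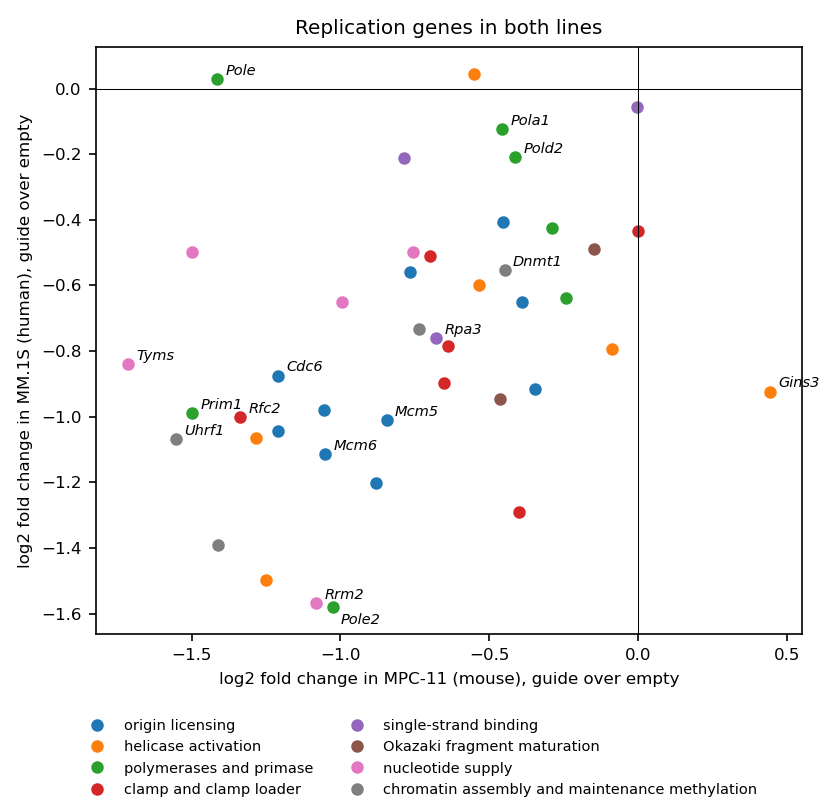
Log2 fold change of each replication gene with the guide over the empty vector in MPC-11 (x axis) and in MM.1S (y axis), coloured by role; the lines through 0 mark no difference. Of 43 points, 40 lie at the lower left, Gins3 lies right of 0 in MPC-11, and Gins4 and Pole lie just above 0 in MM.1S.

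In splenic plasma cells more members were above 0 than below, with shifts that were small relative to their spread. In the libraries labelled flox/-, 29 of 43 genes were above 0, against 54.3% of the 11887 genes tested, and the median log2 fold change was 0.48 against 0.09 over all genes (unchanged with Cdc6 at its lower bound). Both libraries labelled flox/- lay above both labelled flox/+ for 20 genes, against 25.7% of all genes, and below for 5, against 18.3%. No gene of the whole table passed edgeR's adjusted threshold (0.0% in either direction). At an unadjusted p under 0.05, edgeR had 4 members higher against 8.63% of all genes, a share near the background, and 0 lower against 3.85%. DESeq2 called 2 higher against 3.71% and 0 lower against 1.73%. The median depended on the library: without flox/+ library a it was 0.31 against 0.32 over all genes, and without flox/- library 2 it was 0.21 against 0.06.

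Markers of other cell types differed between the same libraries, in CPM scaled over the 10 mouse libraries and not within the comparison. T cell markers summed to 172 and 444 CPM in the libraries labelled flox/- against 15.3 and 30.1 CPM in those labelled flox/+ (8 of 8 and 6 of 8 detected, Cd8a and Cd8b1 at 0 in flox/+). Macrophage markers summed to 7349 and 625 CPM in flox/- against 500.2 and 190.1 CPM in flox/+, with all 10 detected in each group. B cell markers summed to 487 and 745 CPM in flox/- against 258 and 284 CPM in flox/+, with 8 of 8 detected in each. NK cell markers summed to 47.5 and 131 CPM in flox/- against 13.6 and 22.0 CPM in flox/+ (5 of 6 and 2 of 6 detected; Ncr1 at 0 in both), and erythroid markers to 852 and 47.4 CPM against 44.2 and 4.89 CPM (7 of 7 and 6 of 7 detected, Klf1 at 0 in flox/+). Germinal center markers overlapped, at 142 and 223 CPM in flox/- against 146 and 292 CPM in flox/+ (7 of 7 and 5 of 7 detected). The part of these cells in the values of the replication genes was not tested, and in sorted bulk samples fewer cells of a type and less RNA per cell cannot be told apart. In MPC-11, T cell markers summed to at most 0.964 CPM and NK cell markers to 0, and macrophage markers to 942 to 1310 CPM with the guide against 1161 to 1287 CPM with the empty vector, from 2 of 10 detected, with Lyz2, Csf1r and C1qa at 0 in both groups. Of these 2, Cd68 had 1305 and 934 CPM with the guide against 1135 and 1260 CPM with the empty vector. Mrc1, the other, had 4.53 and 8.43 CPM with the guide against 25.7 and 27.0 CPM with the empty vector (log2 fold change -2.02; adjusted p = 0.498 by edgeR and 0.0162 by DESeq2).

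Mcm5 (Entrez 17218, mm10 chromosome 8, 75109468 to 75128439) had the smallest p among members in splenic plasma cells, with 37.6 and 41.6 CPM in the libraries labelled flox/- against 11.5 and 7.31 CPM in those labelled flox/+. Replicates lay close together and the groups far apart, at 2.07 ± 0.40 in log2 fold change (SE, 2 libraries a group; adjusted p = 0.275 by edgeR and 6.895e-04 by DESeq2). Cdc6, which helps load the ring, had 3.74 and 0.659 CPM in the libraries labelled flox/-, from 121 and 21 counts, and no count in either library labelled flox/+. Against a floor of 3 counts over the flox/+ group it was at least 26.5-fold higher (adjusted p = 0.283 by edgeR and 0.033 by DESeq2). This bound covers counting error only and not the spread between libraries. Chaf1a, for example, held 0 and 77 counts in the same flox/+ libraries. Orc1, a subunit of the origin recognition complex, was similarly scarce, at 1.92 and 0.909 CPM in the libraries labelled flox/- against 0 and 0.688 CPM in those labelled flox/+.

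The other ring subunits differed by less in splenic plasma cells. Mcm3 had 19.9 and 28.3 CPM in the libraries labelled flox/- against 11.3 and 3.81 CPM in those labelled flox/+, at 1.67 ± 0.62 in log2 fold change (SE; edgeR adjusted p = 0.361). In the same order, Mcm7 had 21.1 and 38.5 CPM against 7.08 and 21 CPM, Mcm4 had 11.8 and 19.2 CPM against 10.8 and 9.48 CPM, and Mcm6 had 61.3 and 77 CPM against 53.3 and 48.9 CPM. Mcm2 alone of the ring overlapped, with 17.9 and 30.7 CPM in the libraries labelled flox/- against 29.4 and 25 CPM in those labelled flox/+ (below 0 in log2 fold change, but 0.76 with library size alone as the scaling). Both libraries labelled flox/- were thus above the higher flox/+ value in 5 of the 6 subunits, for Mcm7 by a margin far smaller than the distance between its replicates.

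Outside licensing, the groups separated for some splenic members of every role. By the same rule 25.7% of all genes were higher and 18.3% lower, and role counts this small were not tested against those shares. Without overlap, 1 of 6 helicase activation genes was higher in the libraries labelled flox/- and 1 lower, as were 3 and 1 of 7 polymerase genes, 2 and 0 of 6 clamp genes, 1 and 1 of 3 RPA subunits and 1 and 0 of 2 Okazaki fragment genes. Those higher were Gins2, Pola1, Prim1, Pold1, Pcna, Rfc1, Rpa2 and Lig1, and those lower were Cdc45, Pold2 and Rpa3. Pold1 had 19.6 and 29.8 CPM in the libraries labelled flox/- against 13.7 and 4.24 CPM in those labelled flox/+, at 1.46 ± 0.65 in log2 fold change (SE; edgeR adjusted p = 0.465). Gins2 had 3.62 and 2.82 CPM against 0.409 and 1.43 CPM in the same order, and Pcna had 11.4 and 14.9 CPM against 9.47 and 10.4 CPM. In both, the flox/- libraries lay above the controls. Gins4 had 21.6 and 22.2 CPM in the libraries labelled flox/- against 24.9 and 20.8 CPM in those labelled flox/+, and Gins3 had 0.124 and 2.32 CPM against 1.17 and 3.07 CPM in the same order. Pold2 was lower without overlap, at 32.8 and 27.7 CPM in the libraries labelled flox/- against 37.1 and 50.9 CPM in those labelled flox/+ (log2 fold change -0.54 ± 0.34, SE; 0.35 with library size alone as the scaling). In flox/- and then flox/+ libraries, Rfc2 had 70.0 and 60.9 CPM against 59.4 and 91.2 CPM, Rpa1 had 32 and 49 CPM against 27.3 and 36.3 CPM, and Fen1 had 31.7 and 37.2 CPM against 27.4 and 64.4 CPM. None of these 3 separated the groups. Rpa3 had 1.98 and 2.04 CPM in the libraries labelled flox/- against 2.63 and 4.18 CPM in those labelled flox/+, without overlap, and its log2 fold change was 0.15 with library size alone. Lig1, the ligase that seals Okazaki fragments, had 11.8 and 9.72 CPM in the libraries labelled flox/- against 2.69 and 3.55 CPM in those labelled flox/+, at 1.78 ± 0.56 in log2 fold change (SE; edgeR adjusted p = 0.298).

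In nucleotide supply, Rrm1 had 20.6 and 27.4 CPM in the libraries labelled flox/- against 14.1 and 22.5 CPM in those labelled flox/+, and Tyms had 1.58 and 2.51 CPM against 1.81 and 6.41 CPM in the same order, both with overlap. The other 3 genes of this role did not overlap. Tk1, thymidine kinase, had 12.7 and 6.77 CPM in the libraries labelled flox/- against 5.38 and 1.96 CPM in those labelled flox/+, and Rrm2 had 8.85 and 6.96 CPM against 4.27 and 6.88 CPM in the same order, both higher in flox/-. Dut was lower in flox/-, with 6.53 and 7.12 CPM in the libraries labelled flox/- against 8.13 and 9.37 CPM in those labelled flox/+. Dnmt1 had 25.1 and 34.2 CPM in the libraries labelled flox/- against 24.3 and 14.9 CPM in those labelled flox/+, and all 4 chromatin genes were above 0, 3 of them without overlap. Under 100 counts were held by 12 and 10 of the 43 genes in the libraries labelled flox/- against 22 and 21 in those labelled flox/+, so many splenic fold changes rest on under 100 counts a library.

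Among the neighbouring lists in splenic plasma cells, no gene of the 3 lists passed edgeR's adjusted threshold. Of 20 mitotic genes 12 were higher without overlap and 0 lower, against 25.7% and 18.3% of all genes. Their median log2 fold change was 1.53. Several held few counts in flox/+ libraries a and b (Kif11 0 and 0, Birc5 4 and 0, Aurka 10 and 3), though Mki67 held 159 and 148. By unadjusted p under 0.05, edgeR had 6 mitotic genes, 3 G1/S regulators and 1 other replication factor higher, against 8.63% of all genes. It had 0 of any list lower, against 3.85%. DESeq2 called 1 mitotic gene and 1 other replication factor higher, against 3.71%. The mitotic genes of highest CPM did not separate the groups: in flox/- and then flox/+ libraries, Bub1b had 14.4 and 16.6 CPM against 20 and 4.24 CPM and Mki67 had 3.96 and 10.4 CPM against 9.30 and 7.84 CPM. Of 29 G1/S regulators 15 were higher and 3 lower without overlap (median 0.51). Cdk4, a G1 kinase, had 68.7 and 80.7 CPM in the libraries labelled flox/- against 64.4 and 79.6 CPM in those labelled flox/+, and Ccnd2, one of its cyclin partners, had 73.7 and 50.6 CPM against 30.3 and 20.9 CPM (edgeR adjusted p = 0.286). The 41 other replication factors tested were even, with 10 higher and 10 lower without overlap and a median of -0.02. Samhd1 had 121 and 135 CPM in the libraries labelled flox/- against 96.7 and 182 CPM in those labelled flox/+, and Ssrp1 had 98.5 and 130.1 CPM against 84.5 and 99.2 CPM.

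Across the 3 comparisons, 12 members were higher without overlap in the libraries labelled flox/- and lower without overlap in both guided lines, against 0.808% of the 8046 genes tested in all. They were Orc1, Cdc6, Mcm4, Mcm5, Mcm6, Mcm7, Gins2, Prim1, Pcna, Rrm2, Tk1 and Chaf1b. The list holds for CPM. On the authors' log2 FPKM scale the splenic groups overlapped for Orc1, Mcm4, Mcm7, Prim1, Pcna, Rrm2 and Chaf1b. Rrm2, for example, had 3.53 and 3.195 in flox/- against 2.71 and 3.596 in flox/+ on that scale. Cdc45 and Dut were lower without overlap in all 3, and the share of all genes with this pattern was not computed. Their splenic part holds for TMM scaling. With library size alone as the scaling, 42 of the 43 splenic log2 fold changes were above 0 and 1 was below. The difference between the splenic and the MPC-11 effect was tested as an interaction over 8 mouse libraries. None of 43 members passed edgeR's adjusted threshold, nor did any other gene (0.0%), and the smallest adjusted p among members was 0.217 for Mcm5. At an unadjusted p under 0.05, edgeR had 13 members with a higher effect in splenic plasma cells against 4.25% of all genes and 0 with a lower one against 1.96%, and DESeq2 called Mcm5 and Cdc6 (1.04% of all genes). By sign 39 of 43 were above 0, against 55.9% of all genes. For Mcm5 the difference was 2.92 ± 0.54 on the log2 scale (SE; DESeq2 adjusted p = 5.475e-04), and the median over members was 1.11 against 0.13 over all genes.

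The bases before Mcm6 and Rrm2, a pair of the 12 genes listed above by CPM, are shown as examples. They were chosen after the windows had been searched, since Mcm6 holds several matches to the E2F words below and Rrm2 none. RefSeq promoter windows of the GRCm38.p6 build (250 bases before to 50 after the start) were matched for 37 of the 43 mouse genes, with 45 windows in all. The printed stretches end where the annotated gene begins and read 5′ to 3′ on the gene's strand. Capitals mark the E2F words TTTCCCGC, TTTCGCGC, TTTGCCGC and TTTGGCGC on either strand; where neighbouring words overlap, the capitals run together.
Mcm6: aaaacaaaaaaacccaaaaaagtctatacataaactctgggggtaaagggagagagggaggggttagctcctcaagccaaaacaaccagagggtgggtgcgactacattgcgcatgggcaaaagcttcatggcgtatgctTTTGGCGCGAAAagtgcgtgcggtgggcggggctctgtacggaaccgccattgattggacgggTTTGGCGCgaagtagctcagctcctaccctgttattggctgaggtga
Rrm2: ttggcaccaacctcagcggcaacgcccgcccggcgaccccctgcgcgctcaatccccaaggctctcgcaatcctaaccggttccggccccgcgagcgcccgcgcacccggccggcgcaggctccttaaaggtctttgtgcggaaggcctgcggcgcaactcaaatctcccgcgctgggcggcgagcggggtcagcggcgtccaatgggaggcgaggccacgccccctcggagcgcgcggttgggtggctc
The Mcm6 stretch is chr1:128359706-128359955 (minus strand) and that of Rrm2 is chr12:24708004-24708253 (plus strand). Mcm6 holds 3 matches to these words, some of them overlapping or repeated, and Rrm2 has none in this window.

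One of the E2F words was present in 33.3% of the 45 member windows, 15 in number, against 2.26% of all 32851 windows of the same length. The genes were Cdc6, Cdt1, Dnmt1, Gins3, Lig1, Mcm3, Mcm5, Mcm6, Mcm7, Orc1, Pola1, Pold1, Pole2, Rfc3 and Uhrf1. The word CCAAT stood in 60% of member windows against 37.4% of all, and TTTGAA, the core of the cell cycle homology region, in 13.3% against 17.9%. Of words tied to IRF factors, GAAA repeated after a gap of 2 bases stood in 2.22% of member windows (Pold2) against 3.44% of all, and GGAA followed by GAAA after the same gap in 0% against 2.72%. Both strands were searched, and these counts describe letters and not binding.

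With no guide, MPC-11 and splenic plasma cells differed in these genes. In MPC-11 with the empty vector over the libraries labelled flox/+, 14 members rose past edgeR's adjusted threshold against 11.4% of all genes, and 1 fell against 16.5%. By sign 36 were above 0, against 46.2% of all genes, with a median log2 difference of 1.19 against -0.05 over 12993 genes. Values here are CPM scaled over the 10 mouse libraries. Mcm3 had 84.9 and 167 CPM in MPC-11 with the empty vector against 17.9 and 6.17 CPM in the libraries labelled flox/+ (log2 3.38 ± 0.60, SE; edgeR adjusted p = 0.00517). Mcm5 had 83.6 and 98.3 CPM in MPC-11 with the empty vector against 18.1 and 11.8 CPM in the libraries labelled flox/+ (edgeR adjusted p = 0.00279), and Cdc45 had 33.4 and 31.9 CPM against 5.99 and 7.12 CPM in the same order (edgeR adjusted p = 0.0133). The others that rose were Cdc6, Mcm4, Mcm7, Gins2, Pola2, Pold1, Pold2, Rfc1, Rfc4, Rrm1 and Dnmt1, 3 of them ring subunits or their loader.

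Other members did not pass the threshold between the line and the primary cells. Mcm6 had 87.7 and 102 CPM in MPC-11 with the empty vector against 84 and 79.2 CPM in the libraries labelled flox/+ (edgeR adjusted p = 0.636), and Pcna had 15.3 and 15.6 CPM against 14.9 and 16.9 CPM in the same order. Rfc2 was the member that fell, with 64.6 and 54.5 CPM in MPC-11 with the empty vector against 93.5 and 148 CPM in the libraries labelled flox/+ (edgeR adjusted p = 0.0443; with library size alone as the scaling all 43 were above 0). By edgeR's adjusted threshold 18 of 20 mitotic genes rose in MPC-11, against 11.4% of all genes. Their median was 5.37 on the log2 scale, with few or no flox/+ counts for several of them. The number of members past the threshold in either direction was 15, but 7 without empty-vector library 1, 6 without empty-vector library 2, 10 without flox/+ library a, and 36 with library size alone as the scaling.

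**Figure D5:**
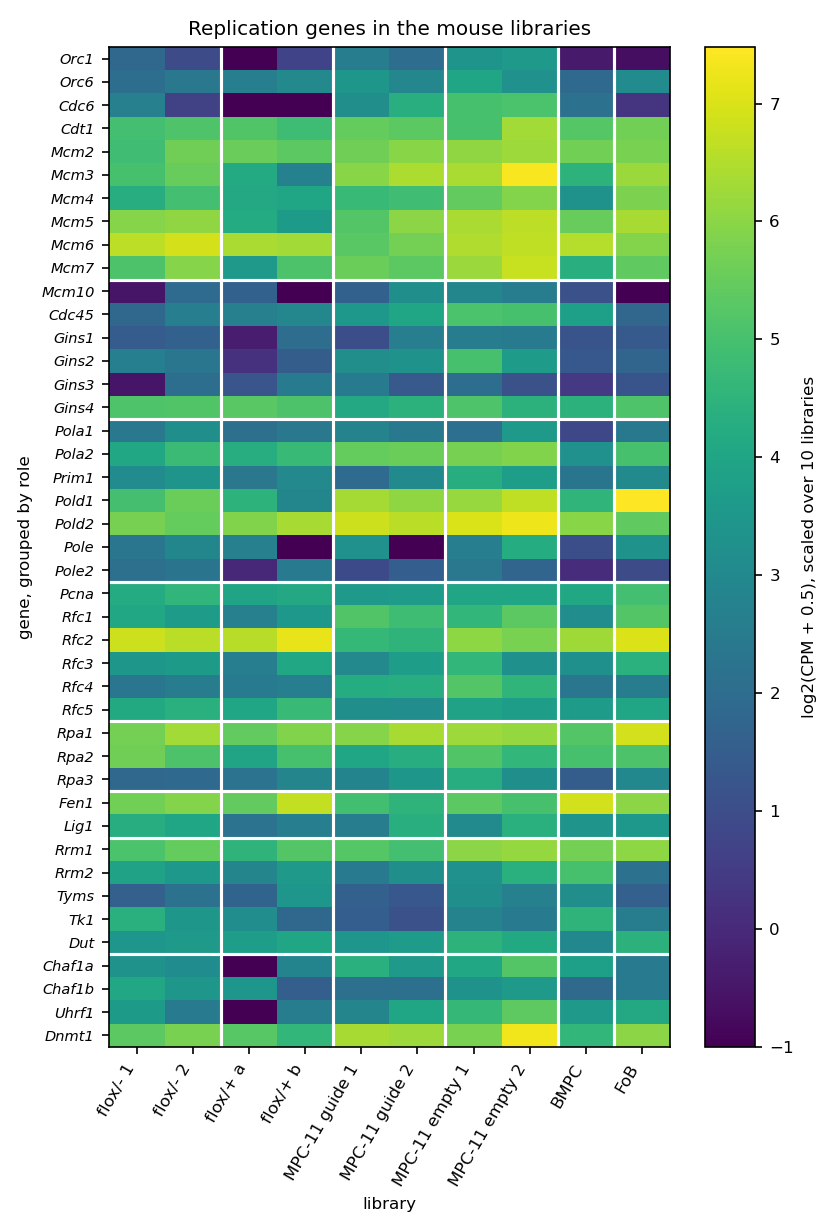
Level of each replication gene (down the page, grouped by role) in the 10 mouse libraries (across) as log2(CPM + 0.5), scaled over all 10. Mcm6 and Rfc2 are bright in all splenic plasma cell libraries and in BMPC, and Cdc6 is dark in both flox/+ libraries.

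In the single libraries of BMPC and FoB, which allow no test, 14 of 41 members with enough counts were at least 2-fold lower in BMPC, against 22.6% of genes, and 6 at least 2-fold higher, against 22.8%. The 6, in BMPC and then FoB, were Rrm2 (31.7 against 4.11 CPM), Cdc45 (13.4 against 2.99 CPM), Tk1 (22.2 against 5.61 CPM), Cdc6 (4.08 against 0.736 CPM), Tyms (8.53 against 2.51 CPM) and Chaf1a (13.4 against 5.12 CPM), which include 3 of the 5 nucleotide supply genes. The ring was split: in the same order, Mcm6 had 93.1 against 59 CPM and Mcm2 had 50.5 against 53.6 CPM, while Mcm4 had 9.53 against 55.2 CPM and Mcm3 had 22.1 against 73.8 CPM. Pold1 had the ratio farthest from 1 of the 41, with 22.9 against 178 CPM. No count of Mcm10, which helps start the helicase, was found in FoB. Neutrophil markers summed to 627 CPM in BMPC against 9.54 CPM in FoB, and macrophage markers to 210 against 85.7 CPM. Erythroid markers summed to 7.72 CPM in BMPC against 317 CPM in FoB, and T cell markers to 24.2 against 110 CPM. The part of these cells was not tested. With library size alone as the scaling, 34 members were at least 2-fold lower in BMPC, where 71.8% of all genes were.

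Levels of different genes can be compared only per length, on the authors' log2 FPKM scale. On it Rfc2, Pold2, Fen1 and Mcm6 were among the 5 highest members in BMPC and in both splenic plasma cell groups. This was not particular to plasma cells: Rfc2, Fen1 and Pold2 were also among the 5 highest in FoB. Pold2, Rfc2 and Mcm6 were among the 5 highest in MPC-11 with the empty vector. Rfc2 had a mean of 7.07 in the libraries labelled flox/- and 7.17 in those labelled flox/+, and stood at 6.57 in BMPC against 7.30 in FoB. In MPC-11 the highest was Pold2, at 7.02 with the guide and 7.44 with the empty vector. In MM.1S it was TK1, at 7.71 with the guide and 8.18 with the empty vector. In CPM, TK1 had 335 and 324 CPM with the guide against 439 and 492 CPM with the empty vector, so both guide libraries lay below both controls.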

How the data were processed

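As deposited by the authors, gene counts came as 1 mouse and 1 human table of unscaled read numbers, and log2 FPKM values as a file per library (offset and further normalisation are not given in the sources used here). Per the submitters' processing notes, the tools were Subread 1.6.0, featureCounts and limma and the builds mm10 and hg38; no order or settings are given. Entries without a symbol, at most 0.306% of counts in any library, were left out. The 2 flox/+ count columns share a name and are called a and b. Each comparison had a fit to its own 4 libraries in edgeR 4.0.16 (R 4.3.3): TMM scaling, filterByExpr with a minimum count of 10, two-sided quasi-likelihood F test, Benjamini-Hochberg adjustment over all genes, threshold 0.05. The interaction and baseline contrasts used the 8 replicated mouse libraries. All 43 members passed the filter in each fit. Floors are 3 counts over a group and cover counting error only. DESeq2 1.42.0 and limma 3.58.1 (on log2 FPKM) were alternatives, beside other scalings, filters, a replicate block and leaving out each library. The code was tested on simulated data. BMPC and FoB were compared as a ratio of CPM with 0.5 added, for genes with at least 20 summed counts. Their values and all mouse marker values are CPM scaled over the 10 mouse libraries.

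Members and lists were chosen with earlier results of these data known. Per comparison, library values are given for the member of each role with the highest mean CPM, Mcm2 to Mcm7, the 3 highest and 3 lowest fold changes, and the 2 genes of highest mean CPM in each further list; other members with values were chosen after those were seen. Replicates of a group differed beyond counting error (chi-square per degree of freedom 39.2 to 277). Neutrophil and progenitor markers summed to at most 2.40 and 25.9 CPM in the replicated mouse libraries. Positions are of mouse genes.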

Additional observations from a re-analysis of the deposited data

Results flagged for a closer look

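In 18 of the 43 genes both libraries labelled flox/- lay above both labelled flox/+ in splenic plasma cells, and both guide libraries lay below both empty-vector libraries in MM.1S. Of these, 6 have library values in both comparisons under the naming rule. The log2 fold changes were 1.67 in splenic plasma cells and -0.56 in MM.1S for Mcm3, 0.61 and -1.2 for Mcm4, 2.07 and -1.01 for Mcm5, 0.44 and -1.11 for Mcm6, 1.08 and -0.98 for Mcm7, and 0.60 and -0.55 for Dnmt1. Taken singly, 25.7% of all genes were higher without overlap in splenic plasma cells and 18.9% lower without overlap in MM.1S. The share of genes with both was not computed. The splenic separation was narrow for Mcm7 (21.06 against 20.97 CPM at the closest) and Dnmt1 (25.05 against 24.27 CPM). On log2 FPKM the splenic groups overlapped for Mcm4, Mcm7 and Dnmt1. The cells are of different species and the difference between the 2 comparisons was not tested.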

How the results depend on the processing

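Counts of called members depended on the tool. DESeq2 called 2 members higher in splenic plasma cells, 1 lower in MPC-11, 13 lower in MM.1S and 2 in the interaction, where edgeR called 0. In MM.1S edgeR called 13 without a filter on low counts, and 0 to 17 when a library was left out (17 without empty-vector library 1). In MPC-11 leaving out a library gave 0 to 1, and the unadjusted count was 6 in a fit with all 8 mouse libraries. Deviations of same-numbered libraries correlated at -0.107 in MPC-11, 0.134 in MM.1S and -0.0137 in splenic plasma cells. With 2 pairs and no label of a shared batch, whether same-numbered libraries were paired is unknown. With replicate number as a block, edgeR called 12 members lower in MM.1S and 0 in MPC-11, and limma on log2 FPKM called 1 member higher in splenic plasma cells and 10 at baseline. Over fits without 1 library, the lowest and highest medians were 0.21 and 0.59 in splenic plasma cells, 0.92 and 1.46 in the interaction and 0.95 and 1.57 at baseline, where calls were 6 to 14. Library size alone as the scaling gave medians of 1.40 in splenic plasma cells (0.98 over all genes), 2.21 in the interaction (1.16) and 3.13 at baseline (1.73), with 36 baseline calls and 34 members at least 2-fold lower in BMPC. The causes were not tested.

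In the splenic, MPC-11 and MM.1S comparisons, where edgeR called no member, some fold changes changed sign. At baseline Rfc2, called lower, was above 0 with library size alone. With library size alone, 42 of 43 splenic log2 fold changes were above 0 and 1 was below, against 29 and 14 with TMM scaling. Among those that changed sign, the values were 0.76 for Mcm2, 0.22 for Gins3, 0.83 for Gins4, 0.35 for Pold2, 0.70 for Rfc2, 0.15 for Rpa3 and 0.52 for Fen1. Without 1 library, splenic log2 fold changes ran from -0.61 to 0.18 for Mcm2, -4.05 to 0.13 for Gins3, -0.19 to 0.074 for Gins4, -0.48 to 0.14 for Rfc2, -0.90 to 0.32 for Fen1 and -1.65 to 0.17 for Tyms. In MPC-11, Rfc1 reached 0.00013 without immunoglobulin genes, 0.0059 on log2 FPKM and 0.045 with the replicate block. Ranges without 1 library were -0.35 to 0.48 for Rfc1, -0.26 to 0.22 for Rpa1, -1.04 to 0.59 for Dnmt1 and -0.31 to 1.10 for Gins3 in MPC-11. In MM.1S they were -0.51 to 0.95 for GINS4, -0.61 to 1.19 for POLE, -2.40 to 0.48 for POLE2 and -0.20 to 0.081 for RPA1. Of 619 values of single genes under alternatives, 545 kept direction and side of the threshold, 44 newly passed it and 30 changed sign. Replicates differed beyond counting error, and what depth alone limits was not tested.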
